A study of Mus musculus with 4 samples.

Results

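Of the 55820 loci in the table of P10 testes, 10 genes of the piRNA pathway and the germ granule were taken by their gene symbols: the PIWI proteins *Piwil1*, *Piwil2* and *Piwil4*, the Tudor domain proteins *Tdrd1*, *Tdrd5* and *Tdrd9*, the RNA helicases *Ddx4* and *Mov10l1*, and *Mael* and *Asz1*. All 10 had 1 row each and passed the filter on low counts, which left 20561 loci to test. The libraries were made from whole testes of male C57BL/6J mice at postnatal day 10 (P10), with 2 from control mice and 2 from Mps1sKO mice. *Mps1*, listed in the table as *Ttk*, encodes a kinase of the spindle assembly checkpoint, and in Mps1sKO mice its floxed exons are deleted by a Cre recombinase under the *Stra8* promoter, which is active in early spermatogonia and not in the somatic cells of the testis. The labels name the other group only as control, so whether those mice carried the floxed allele or the Cre is not stated. The replicates are described as biological, but it is not stated whether each library came from 1 mouse. The comparison asks how the transcripts of this pathway stood in a P10 testis in which *Mps1* had been deleted in spermatogonia.

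PIWI proteins bind piRNAs, small RNAs of the germ line that guide the silencing of transposons by cutting their transcripts and, in the foetal testis, by directing DNA methylation to their promoters. Much of this machinery sits in germ granules, RNA-rich bodies without a membrane that lie between mitochondria in spermatogonia and spermatocytes, and Tudor domain proteins hold the granules together by binding methylated arginines of PIWI proteins. In mice, loss of several of these genes releases transposons and stops spermatogenesis during meiosis.

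All 10 genes were lower on average in the Mps1sKO testes, with Mps1sKO means of 63.2% to 85.0% of the control means and a median log2 fold change of −0.41. For each of the 10, both Mps1sKO libraries lay below both control libraries, as was so for 21.1% of all tested loci, and the reverse held for 0 members and 20.3% of loci. A log2 fold change below 0 was found for 49.9% of tested loci. With all libraries, *Piwil4* had the largest difference at −0.66 and *Tdrd5* the smallest at −0.23. None of the 10 reached an adjusted p below 0.05 by edgeR's quasi-likelihood test with Benjamini-Hochberg adjustment, for which 0.0292% of tested loci were called lower. An unadjusted p below 0.05 was found for 7 of them, against 9.3% of tested loci in either direction. DESeq2 called 1 of the 10, *Mael*, at an adjusted p of 0.0264, and 30 of 35262 loci lower. limma-voom called 0 of the 10 and 3 of 20561 loci lower. The study's own cut-offs, an unadjusted p below 0.01 and a change of more than 1.5-fold, were met by 1 lower member, *Piwil4*, against 0.681% of tested loci, and by 0 higher members against 0.146%. The relaxed cut-offs, an unadjusted p below 0.05 and a change of more than 1.2-fold, were met by 7 lower members against 4.95% of tested loci, and by 0 higher members against 3.09%. From the RNA of whole testis alone, fewer germ cells and less RNA per germ cell cannot be told apart. By immunostaining, the study counted fewer DDX4-positive cells per tubule in Mps1sKO testes at P10. Its part in the RNA difference was not tested.

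The libraries held 23311689 to 28607746 counts, and levels are given below as CPM, the counts of a gene scaled to library size with TMM factors. *Ttk* stood at 27.9 and 32.6 CPM in the control libraries and at 13.0 and 12.2 CPM in the Mps1sKO libraries, with a log2 fold change of −1.26 and an adjusted p of 0.0461 by edgeR. That call was lost with limma-voom (adjusted p = 0.0745), with a minimum of 10 counts in every library (0.0573) and with the replicate number as a block (0.224), while the fold change stayed at −1.26 to −1.27. With DESeq2 the adjusted p was 7.33e-09, and with any 1 library left out edgeR gave at most 0.00901. Markers of the labelled tissue were detected, with 8 of 8 general germ cell genes and 11 of 12 Sertoli cell genes past the filter. Of 9 genes of pachytene and later germ cells, 4 were filtered out, and the summed level of the 9 was 37.1 to 44.3 CPM. Most of that sum was *Hspa2*, at 32.4 to 38.6 CPM.

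Per transcript length, the members spanned a wide range. In FPKM, the unit that scales counts by gene length and library size, the control means ran from 81.7 ± 7.72 for *Mael* (SD, n = 2 here and below) over 68.6 ± 5.92 for *Ddx4*, 39.7 ± 2.84 for *Piwil2*, 37.0 ± 6.22 for *Mov10l1*, 20.6 ± 2.11 for *Tdrd1*, 14.8 ± 1.29 for *Tdrd9*, 13.8 ± 1.10 for *Asz1*, 5.79 ± 0.251 for *Tdrd5* and 3.67 ± 0.380 for *Piwil4* down to 2.17 ± 0.0771 for *Piwil1*. The control libraries of *Piwil2* and *Mov10l1* overlapped, and so did those of *Tdrd9* and *Asz1*, whereas all other neighbours in this order were separated. In the Mps1sKO testes the order was the same apart from *Tdrd9* and *Asz1*, which changed places at 10.5 ± 2.64 and 10.8 ± 0.678 FPKM and still overlapped. There, *Mael* and *Ddx4* overlapped as well, and so did *Tdrd1* and *Tdrd9*. By its control FPKM, *Mael* lay at percentile 97.8 of all tested loci and *Piwil1* at percentile 38.8.

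**Figure D1:**
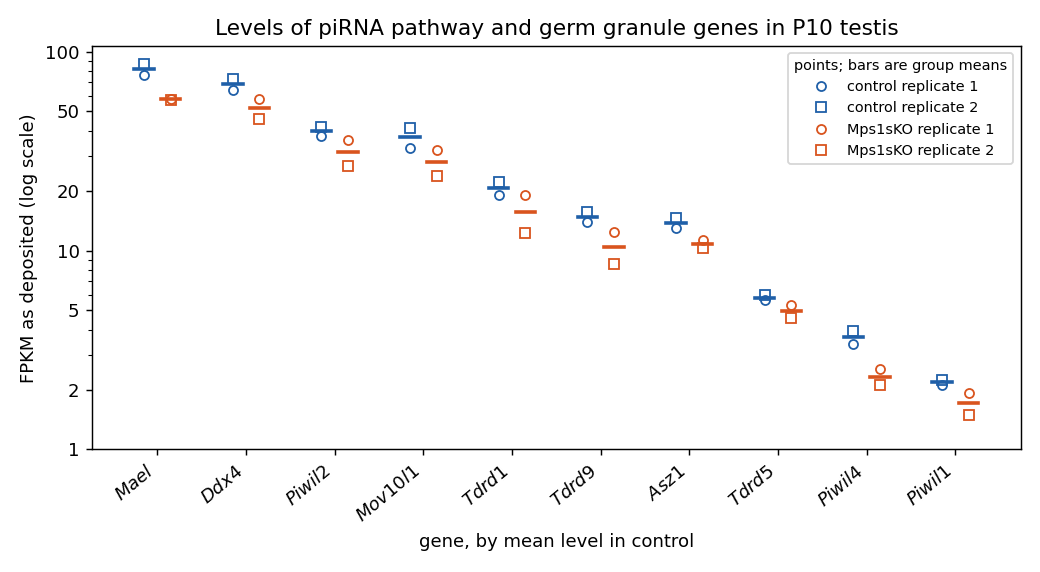
FPKM of the 10 genes in each of the 4 libraries, on a logarithmic axis, in the order of the control means. Points are single libraries, bars are group means, and for every gene both Mps1sKO points lie below both control points, from *Mael* near 81.7 FPKM in the controls to *Piwil1* near 2.17 FPKM.

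Among the PIWI proteins, *Piwil4* (chr9:14696230-14740733 on GRCm38) encodes MIWI2, the nuclear PIWI protein of foetal gonocytes that directs transposon methylation. It was measured at 18.5 and 21.3 CPM in the control libraries and at 13.8 and 11.3 CPM in the Mps1sKO libraries. Both Mps1sKO libraries lay well under both controls. The log2 fold change was −0.66 (SE 0.149, 95% CI −1.01 to −0.32), with an unadjusted p of 0.00241 and an adjusted p of 0.494 by edgeR. Without control replicate 2 the fold change was −0.56 and without Mps1sKO replicate 2 it was −0.53, and neither met the study's cut-offs. *Piwil4* shares 137 exon bases with the antisense gene *Gm10706*, to which 4 to 15 counts were assigned per library, and whether the counting used strand is not stated.

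*Piwil2* (chr14:70372477-70429383) encodes MILI, the PIWI protein of spermatogonia and early spermatocytes that amplifies piRNAs by slicing. It had the highest FPKM of the PIWI genes, and it stood at 201 and 222 CPM in the controls and 192 and 141 CPM in the Mps1sKO testes. Mps1sKO replicate 1 lay close under the controls and replicate 2 far below them. The log2 fold change was −0.35 (SE 0.145, adjusted p = 0.529 by edgeR), and it was −0.14 without Mps1sKO replicate 2 and −0.58 without Mps1sKO replicate 1. *Piwil1* (chr5:128702524-128755474) encodes MIWI, which is best known from pachytene spermatocytes and round spermatids. Its level was low, at 9.32 and 9.78 CPM in the controls and 8.46 and 6.49 CPM in the Mps1sKO libraries, and these values rest on 174 to 282 counts. The groups did not overlap, and the log2 fold change of −0.36 (SE 0.175) had a 95% interval of −0.76 to 0.051. It was −0.17 without Mps1sKO replicate 2 and −0.56 without Mps1sKO replicate 1.

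The Tudor domain proteins differed by −0.23 to −0.50 on the log2 scale. *Tdrd9* (chr12:111971559-112068854), a Tudor protein with a helicase domain that acts with MIWI2, was at 75.6 and 85.4 CPM in the controls and at 67.1 and 46.6 CPM in the Mps1sKO testes. Its log2 fold change was −0.50 (SE 0.165, unadjusted p = 0.0167, adjusted p = 0.497 by edgeR). It was −0.26 without Mps1sKO replicate 2 and −0.79 without Mps1sKO replicate 1, so that its size rested on which Mps1sKO library was used. *Tdrd1* (chr19:56826209-56870012), a scaffold of the germ granule that binds MILI, showed the widest spread of the 10, at 105 and 121 CPM in the controls against 103 and 66.8 CPM. Its Mps1sKO replicate 1 lay just under control replicate 1. The log2 fold change of −0.41 had an SE of 0.189 and an unadjusted p of 0.0642, and it was −0.12 without Mps1sKO replicate 2 and −0.76 without Mps1sKO replicate 1. *Tdrd5* (chr1:156255296-156303664), which shapes the granules of spermatocytes and spermatids, had 39.2 and 41.6 CPM in the controls and 37.0 and 31.8 CPM in the Mps1sKO libraries. Its log2 fold change was −0.23 (SE 0.111, unadjusted p = 0.0693), and −0.13 without Mps1sKO replicate 2. *Tdrd5* shares 176 exon bases with the antisense gene *4930518J20Rik*, which held 0 to 3 counts per library.

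Both RNA helicases had nearly equal fold changes. *Ddx4* (chr13:112598333-112652475), the mouse homologue of Vasa and a common marker of germ cells, was at 196 and 221 CPM in the controls and at 175 and 139 CPM in the Mps1sKO testes. The log2 fold change was −0.41 (SE 0.127, unadjusted p = 0.0129, adjusted p = 0.494 by edgeR), and it was −0.25 without Mps1sKO replicate 2. *Mov10l1* (chr15:88982909-89055152), the helicase that feeds precursor transcripts into piRNA processing, had 138 and 174 CPM in the controls and 135 and 99.3 CPM in the Mps1sKO libraries. Control replicate 1 and Mps1sKO replicate 1 were close to each other, and the other library of each group lay farther out. Its log2 fold change was −0.41 (SE 0.166, adjusted p = 0.527 by edgeR). Without control replicate 2 it was −0.23, without Mps1sKO replicate 2 it was −0.21 and without Mps1sKO replicate 1 it was −0.65.

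*Mael* (chr1:166201201-166238747) encodes Maelstrom, a granule protein needed for transposon silencing in spermatocytes. Its controls were at 133 and 152 CPM and its Mps1sKO libraries at 101 and 99.0 CPM. The Mps1sKO libraries nearly coincided, with a mean of 100.04 ± 1.52 CPM, and both were far below the controls at 143 ± 13.2 CPM. *Mael* had the smallest p of the members, with a log2 fold change of −0.51 (SE 0.0972, 95% CI −0.74 to −0.29), an unadjusted p of 0.000892 and an adjusted p of 0.494 by edgeR. *Asz1* (chr6:18050964-18109061) encodes GASZ, which anchors germ granules at mitochondria. It stood at 37.2 and 41.6 CPM in the controls and at 32.1 and 29.3 CPM in the Mps1sKO testes, without overlap. The log2 fold change was −0.36 (SE 0.109, unadjusted p = 0.0110, adjusted p = 0.494 by edgeR). Neither *Mael* nor *Asz1* moved by over 1.5 times when any 1 library was left out.

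**Figure D2:**
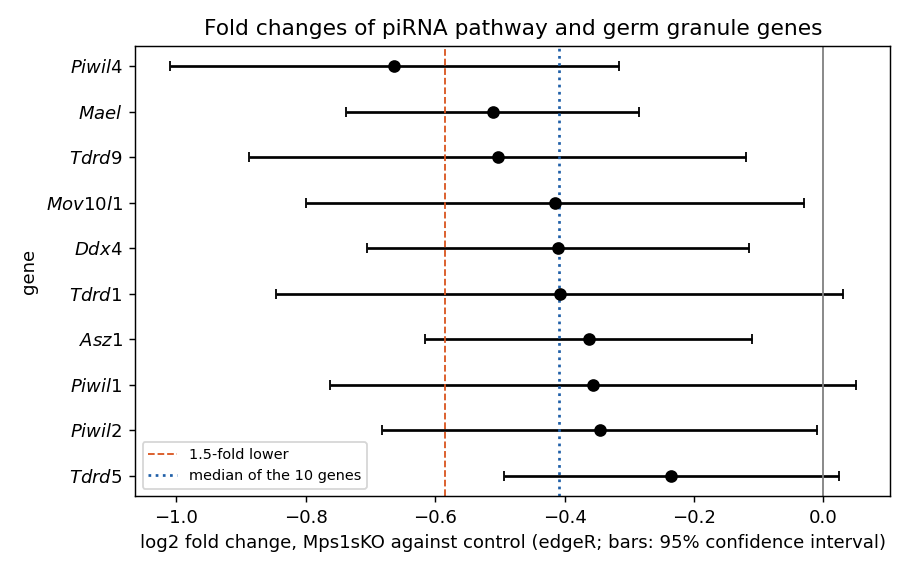
Log2 fold change of Mps1sKO against control for the 10 genes, with bars for the 95% confidence interval from edgeR. All 10 estimates lie below 0, from −0.66 for *Piwil4* to −0.23 for *Tdrd5*, and the intervals of *Piwil1*, *Tdrd1* and *Tdrd5* include 0. The dotted line is the median of the 10 and the dashed line a 1.5-fold lower level.

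The fold changes of the members depended on the libraries in a shared way. Control replicate 2 was above control replicate 1 for all 10, by 4.90% to 26.7%, and Mps1sKO replicate 2 was below Mps1sKO replicate 1 for all 10, with differences of −35.4% to −2.13%. This order was not particular to the members. The summed level of the 8 general germ cell genes had it too, at 1233 and 1443 CPM in the controls and 1053 and 933 CPM in the Mps1sKO testes. So did that of 13 meiotic prophase genes, at 649 and 853 against 554 and 453 CPM. For 8 genes of undifferentiated spermatogonia the controls went the other way, at 402 and 357 CPM. The share of all tested loci with this order was not counted. With each gene centred on its own mean, the mean log2 level of the 10 was 0.13 and 0.30 in the controls, against −0.044 and −0.39 in the Mps1sKO libraries. The median log2 fold change was −0.50 without control replicate 1, −0.31 without control replicate 2, −0.58 without Mps1sKO replicate 1 and −0.23 without Mps1sKO replicate 2. The number of members past the relaxed cut-offs, 7 with all libraries, was 4 without control replicate 2, where 2.28% of all tested loci were called lower, and 3 without Mps1sKO replicate 2, where 5.42% were. The number past the study's cut-offs, 1 with all libraries, was 3 without control replicate 1, 0 without control replicate 2, 5 without Mps1sKO replicate 1 and 0 without Mps1sKO replicate 2. The shares of all tested loci called lower in these fits were 1.51%, 0.469%, 1.34% and 0.898%.

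Outside the members, 11029 annotated genes with a mean of at least 10 CPM were ranked by how closely their centred log2 levels followed the members' mean over the 4 libraries. The nearest were *Gm4316*, with a root mean square difference of 0.0158, *Mastl*, which encodes a mitotic kinase (0.0236), *Stk31*, which encodes a germ cell protein with a Tudor domain (0.0257), *Plekhg4* (0.0281) and *Kif27* (0.0288). This is a likeness over 4 libraries only, chosen out of many genes. Their log2 fold changes were −0.42, −0.43, −0.37, −0.39 and −0.38, near that of the members because of how the genes were chosen.

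Promoters of 9 members, all but *Piwil2*, were found in the RefSeq table of GRCm38.p6. They are windows of 300 bases from 250 before to 50 after the first listed start of each gene. The palindromic E-box CACGTG, the core sequence bound by many basic helix-loop-helix factors, was in 6 of the 9, those of *Ddx4*, *Mael*, *Mov10l1*, *Piwil1*, *Tdrd1* and *Tdrd9*. It was in 7.24% of all 27025 promoters and in 9.63% of the 13208 promoters of tested genes. The stretches of the member with the smallest p, *Mael*, and of the member with the largest fold change, *Piwil4*, which holds no E-box, are shown before the first annotated exon, followed by the E-boxes of other members with up to 12 bases on each side. All are on the strand of the gene, with the E-box in capitals.
*Mael*, chr1:166238748-166238994, minus strand: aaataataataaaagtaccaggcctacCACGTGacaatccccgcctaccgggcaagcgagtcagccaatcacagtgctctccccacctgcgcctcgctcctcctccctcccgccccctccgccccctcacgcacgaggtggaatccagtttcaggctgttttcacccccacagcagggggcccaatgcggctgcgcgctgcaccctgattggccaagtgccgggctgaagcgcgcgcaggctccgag
*Piwil4*, chr9:14740734-14740922, minus strand: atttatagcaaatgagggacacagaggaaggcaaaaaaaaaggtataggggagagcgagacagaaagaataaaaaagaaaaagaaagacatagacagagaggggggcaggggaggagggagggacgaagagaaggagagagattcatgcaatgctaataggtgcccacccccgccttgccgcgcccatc
*Piwil1*, chr5:128736055-128736084, plus strand: aaaaccgccaccCACGTGgcagccaatcag
*Piwil1*, chr5:128736080-128736109, plus strand: atcagggcccagCACGTGtccacctcgccg
*Tdrd9*, chr12:111971382-111971411, plus strand: ggtctccataaaCACGTGcctgtccaggtc
*Tdrd9*, chr12:111971452-111971481, plus strand: gcacgaggctccCACGTGcatgcagggcct
*Mov10l1*, chr15:88982744-88982765, plus strand: ccttCACGTGctaaccgccaac
*Tdrd1*, chr19:56826186-56826208, plus strand: tggggctgcgcgCACGTGggagt
*Piwil1* and *Tdrd9* hold 2 E-boxes each in the window, and that of *Tdrd1* begins 11 bases before its start. The E-box of *Ddx4* lies 29 bases before the RefSeq start, inside an exon of the GENCODE annotation. The RefSeq starts used for *Piwil1*, *Piwil4*, *Tdrd5*, *Ddx4*, *Mov10l1* and *Mael* lie inside the genes as the deposited coordinates give them. That of *Piwil1* lies farthest inside and that of *Mael* least far.

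Other motifs were searched on both strands of the same windows. The STRA8 motif CNCCTCAG was in the promoters of *Asz1* and *Mov10l1*, and in 7.97% of all promoters and 9.18% of those of tested genes. The E2F motif TTCCCGC was in those of *Ddx4* and *Tdrd5*, and in 4.66% of all promoters and 7.92% of those of tested genes. The MYB motif AACNGTT and the CRE motif TGACGTCA were in 0 of the 9, and in 4.36% and 1.88% of all promoters and 3.34% and 2.93% of those of tested genes. No matches of different motifs overlapped in a member. In the other lists the E-box was in 1 of 12 promoters of further piRNA genes, 4 of 9 of further germ granule genes, 0 of 9 of relatives with wide expression, 1 of 6 of general germ cell genes and 4 of 11 of meiotic prophase genes. Whether any of these letters bound a factor in these testes was not measured.

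General germ cell genes outside the pathway were lower as well. All 8 of them (*Dazl*, *Dnd1*, *Taf7l*, *Tex101*, *Elavl2*, *Uchl1*, *Rhox13* and *Taf4b*) had both Mps1sKO libraries below both controls, with a median log2 fold change of −0.46, and all 8 were lower past the relaxed cut-offs. Over all tested loci, those shares were 21.1% and 4.95%. Their summed level was 1233 and 1443 CPM in the controls and 1053 and 933 CPM in the Mps1sKO testes. By comparison, the 11 tested Sertoli cell genes, which mark the somatic nurse cells of the tubule, had a median of 0.38, and the 12 listed summed to 5276 and 5665 CPM in the controls against 7044 and 6237 CPM. Most of that sum was *Clu*, at 2900 and 3586 CPM in the controls and 4399 and 3319 CPM in the Mps1sKO testes, which overlapped. The lists for differentiating spermatogonia and meiotic prophase had medians of −0.49 and −0.60, and that for undifferentiated spermatogonia had −0.25. Leydig, peritubular myoid, macrophage and endothelial genes had medians of 0.18, −0.12, −0.026 and 0.096. They had 0 genes past the relaxed cut-offs, against 4.95% of all tested loci lower and 3.09% higher. The part of cell composition in the members' difference was not tested. The ratios that follow set RNA against RNA and cannot tell cell number from RNA per germ cell.

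Relative to the summed level of the 8 general germ cell genes, the difference of the members was close to 0. The median log2 ratio of Mps1sKO to control was 0.014 over the 10, from −0.23 for *Piwil4* to 0.19 for *Tdrd5*, and for 7 members the groups overlapped. *Ddx4* was 15.9% and 15.3% of the germ cell sum in the controls and 16.6% and 14.9% in the Mps1sKO testes. *Mael* was 10.8% and 10.5% in the controls and 9.61% and 10.6% in the Mps1sKO testes. For both genes the Mps1sKO values lay on either side of, or reached into, the control range.

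The groups were separated on this scale for *Piwil4*, *Tdrd5* and *Asz1*, and for *Mael* as well under both alternatives given below. The share of all tested loci separated on this scale was not counted. On the CPM scale, both Mps1sKO libraries lay below both controls for 21.1% of tested loci and above them for 20.3%, so separation of single members is common. *Piwil4* was lower, at 1.497% and 1.478% of the germ cell sum in the controls and 1.31% and 1.22% in the Mps1sKO testes. *Tdrd5* was higher, at 3.18% and 2.89% in the controls and 3.52% and 3.40% in the Mps1sKO testes, and *Asz1* was higher by a small margin, at 3.02% and 2.88% against 3.05% and 3.14%. With 2 libraries a group, the smallest two-sided p of an exact permutation test is 0.333, so no test was made. The median ratio was 0.048 without *Dazl*, the germ cell gene with the most counts, and 0.031 on the FPKM scale. In both of these, 6 members overlapped, and *Mael* was below its controls, at 17.2% and 16.5% against 17.4% and 17.7% without *Dazl* and at 14.3% and 14.5% against 15.09% and 15.11% in FPKM. The median was −0.066 to 0.12 with any 1 library left out. *Uchl1* is another large part of the germ cell sum, at 331 and 332 CPM in the controls and 231 and 292 CPM in the Mps1sKO testes. It was higher in Mps1sKO replicate 2 than in replicate 1, whereas the sum was lower. Whether the separations of single members hold without *Uchl1* was not tested.

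**Figure D3:**
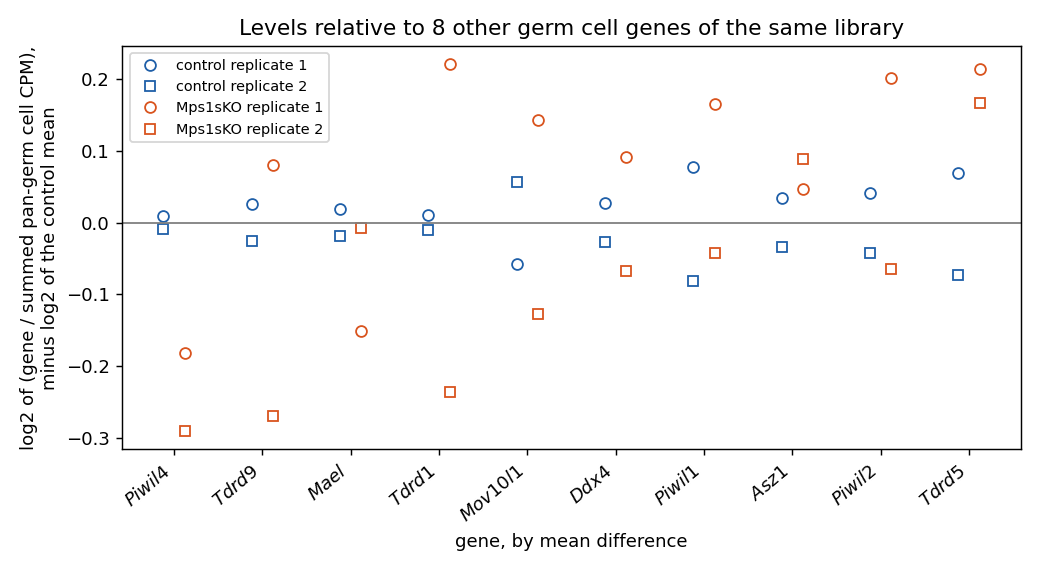
Log2 ratio of each of the 10 genes to the summed CPM of 8 general germ cell genes in the same library, with the control mean of each gene set to 0 and circles and squares for replicates 1 and 2. The control and Mps1sKO points overlap for 7 genes, both Mps1sKO points of *Piwil4* lie below its controls, and those of *Tdrd5* and *Asz1* lie above theirs.

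Further genes of piRNA biogenesis and silencing were mostly lower too. Of 18 listed, 16 were tested, and *Gtsf1l* and *Gtsf2* had at most 1 count in any library. The median log2 fold change was −0.37. Of the 16, 14 were below 0 and 13 had both Mps1sKO libraries below both controls, against 49.9% and 21.1% of all tested loci. The median was −0.21 without Mps1sKO replicate 2 and −0.60 without Mps1sKO replicate 1. None passed an adjusted p of 0.05 by edgeR, for which 0.0292% of tested loci were called lower. An unadjusted p below 0.05 was found for 10, against 9.3% of tested loci in either direction. Past the relaxed cut-offs were 9 lower genes and 0 higher genes, against 4.95% and 3.09% of all tested loci. Among these 9 were genes that make or trim piRNAs: *Pld6*, the mitochondrial nuclease known as Zucchini (−0.31), *Tdrkh*, a Tudor protein that tethers PIWI proteins to mitochondria (−0.54), *Pnldc1*, the trimming exonuclease (−0.37), and *Henmt1*, which methylates the piRNA 3′ end (−0.58). *Henmt1* was at 16.4 and 16.0 CPM in the controls and at 11.5 and 10.3 CPM in the Mps1sKO testes, without overlap.

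The other 5 were *Gtsf1*, a partner of PIWI slicing (−0.43), *Tdrd12* (−0.37), *Gpat2*, a mitochondrial protein that binds MILI (−0.41), *Tex15*, a nuclear partner of MIWI2 in transposon methylation (−0.48), and *Btbd18*, a nuclear protein needed for pachytene piRNA transcription (−0.52). *Tex15* held the most counts of the list, at 283 and 385 CPM in the controls and 282 and 198 CPM in the Mps1sKO testes, so that control replicate 1 and Mps1sKO replicate 1 nearly coincided. *Mybl1* and *Dnmt3c* were the 2 of the 16 with both Mps1sKO libraries above both controls, against 20.3% of all tested loci. Both were named after their values were seen. *Mybl1* encodes A-MYB, the transcription factor that switches on pachytene piRNA precursors, and was at 28.6 and 28.0 CPM in the controls and 35.6 and 31.7 CPM in the Mps1sKO libraries. Its log2 fold change was 0.25, under the relaxed fold of 1.2, with an unadjusted p of 0.0487 and an adjusted p of 0.536 by edgeR. *Dnmt3c*, the DNA methyltransferase of young transposons, had 0.16.

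Of 12 other germ granule genes, 11 were tested, with a median log2 fold change of −0.26. It was −0.18 without Mps1sKO replicate 2 and −0.39 without Mps1sKO replicate 1. Among them, 9 were below 0, 8 had both Mps1sKO libraries below both controls and 0 had both above. Over all tested loci, those shares were 49.9%, 21.1% and 20.3%. *Ddx25*, a helicase of the later chromatoid body, was the 1 gene past the study's cut-offs, against 0.681% of all tested loci called lower. It stood at 40.7 and 45.2 CPM in the controls against 29.002 and 26.906 CPM. Its log2 fold change was −0.62 (SE 0.107, adjusted p = 0.494 by edgeR and 0.0264 by DESeq2). Past the relaxed cut-offs were also *Adad2* (−0.52), *Rnf17*, a Tudor protein of spermatocytes and spermatids (−0.49), and *Stk31* (−0.37). Of all tested loci, 4.95% were lower past these cut-offs. *Prmt5*, the arginine methyltransferase that prepares PIWI proteins for Tudor binding, held the most counts and had −0.14. *Nanos2*, with the fewest, was at 0.557 and 0.901 CPM in the controls and 1.21 and 0.522 CPM in the Mps1sKO libraries, which overlapped. *Tdrd15* was not analysed here.

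Relatives that most cells express had log2 fold changes on both sides of 0, from −0.45 to 0.34. These 10 genes were the Argonautes *Ago1* to *Ago4*, which carry miRNAs, the Tudor proteins *Snd1*, *Tdrd3*, *Akap1* and *Smn1*, and the helicases *Mov10* and *Ddx3x*, the closest relatives of the germ cell helicases above. Their median log2 fold change was 0.067, with 7 above 0 and 3 below. Both Mps1sKO libraries lay above both controls for 5 and below them for 1, against 20.3% and 21.1% of all tested loci. The median ranged from 0.0050 without control replicate 2 to 0.14 without control replicate 1. Past the relaxed cut-offs were 0 lower genes and 1 higher gene, against 4.95% and 3.09% of all tested loci. The higher gene was *Ago2*, at 76.9 and 64.8 CPM in the controls and 80.2 and 99.6 CPM in the Mps1sKO testes. Its log2 fold change was 0.34 (SE 0.133, adjusted p = 0.519 by edgeR), and it was not past them without control replicate 2. *Mov10* was at 163 and 137 CPM in the controls and 175 and 166 CPM in the Mps1sKO testes, and was named after its values were seen. *Ddx3x*, with the most counts of the list, had 333 and 331 CPM in the controls and 382 and 360 CPM in the Mps1sKO testes. *Ago4*, with the fewest, had 16.4 and 25.5 CPM in the controls and 15.3 and 15.4 CPM in the Mps1sKO testes, with a log2 fold change of −0.45 and an unadjusted p of 0.0560. The difference between the lists was not tested.

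**Figure D4:**
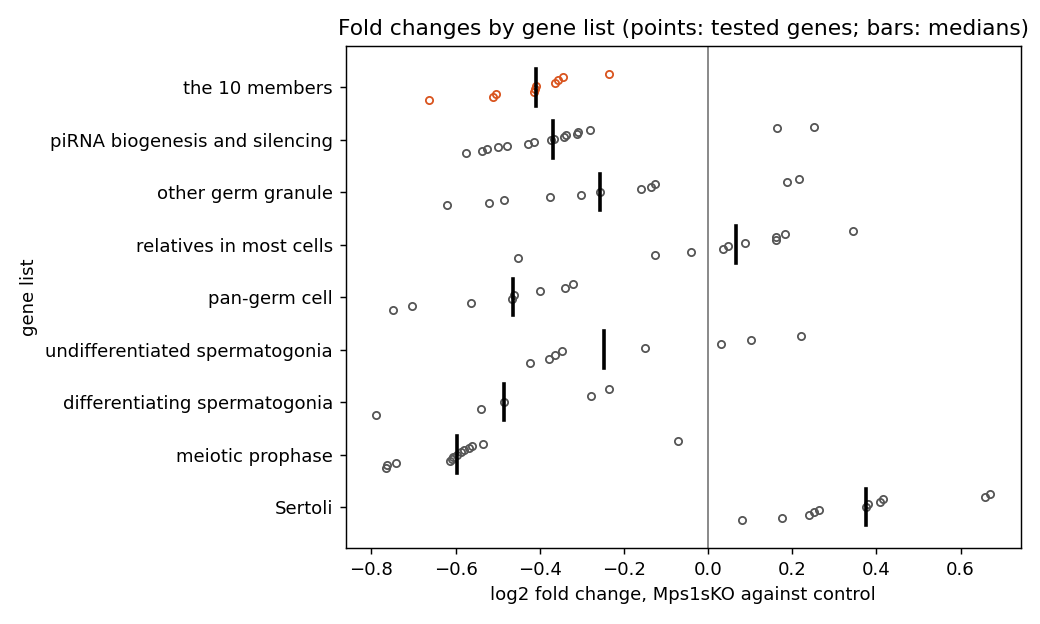
Log2 fold changes of the tested genes in each list, as points, with a bar at the list's median. The medians of the 10 members (−0.41), the further piRNA genes (−0.37) and the further granule genes (−0.26) lie below 0 like those of the germ cell lists, and those of the relatives in most cells (0.067) and the Sertoli cell genes (0.38) lie above it.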

How the data were processed

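RNA sequencing was analysed for 4 libraries of P10 testes, with groups taken from the labelled genotypes. The study's methods give NEBNext Ultra libraries and paired-end reads from a NovaSeq platform. The submitters' processing notes name HISAT2 2.0.5, featureCounts, DESeq2 1.16.1 and the build mm10. The annotation and the strandedness are not given in the sources used here, and identifiers and coordinates of the 10 members are those of GENCODE M21. The authors deposited raw counts per gene and FPKM values, which they normalized by gene length and library size. FPKM was used only to set genes side by side.

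The main test was the quasi-likelihood F test for genotype of edgeR 4.0.16 (R 4.3.3). Loci were filtered by filterByExpr, TMM gave the scaling (factors 0.990 to 1.01), and p was adjusted by Benjamini-Hochberg over all 20561 tested loci. The estimated common coefficient of variation between replicates was 0.106. A floor of 3 counts corresponds to 0.104 to 0.129 CPM. P-values measure the spread between these samples only. The alternatives were DESeq2 1.42.0, limma-voom (limma 3.58.1), other scalings and filters, the replicate number as a block, and each library left out in turn. The script was tested on simulated data. Levels relative to germ cells are member CPM divided by the summed CPM of 8 general germ cell genes. Promoters were read with Python 3.11.15, for the first start listed per gene.

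The members and the gene lists were chosen with earlier results of these data known. Named were all 10 members, *Ttk*, list genes past any of the 3 call rules, the list genes with the most and fewest counts, and the 5 genes nearest to the members' mean profile. Other marker genes are named only where a sentence needs them.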

Additional observations from a re-analysis of the deposited data

How the results depend on the processing

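All 10 members had a log2 fold change below 0 under every alternative run. Their number past an adjusted p of 0.05, 0 with edgeR, was 1 with DESeq2, 6 with no filter on low counts and 0 to 1 with each library left out, the 1 being without control replicate 1. Over all loci, the lower calls went from 6 of 20561 to 30 of 35262 with DESeq2, 251 of 35262 with no filter and 126 of 21477 without control replicate 1. For the 37 tested genes of the 3 other pathway lists, that number, 0 with edgeR, was 1 with DESeq2, 8 with no filter and 0 to 5 with each library left out. The cause was not tested. With a library left out, members past the study's cut-offs numbered 0 to 5 (1 with all libraries) and past the relaxed cut-offs 3 to 10 (7 with all), and their median log2 fold change was −0.58 to −0.23. Lower genes of the other lists past the study's cut-offs numbered 0 to 10 (1 with all, 2 with library size only) and past the relaxed cut-offs 5 to 20 (13 with all), and higher ones past the relaxed cut-offs 0 to 1. The order used next is without control replicate 1, control replicate 2, Mps1sKO replicate 1 and Mps1sKO replicate 2. In that order, these lower genes of the other lists numbered 5, 1, 10 and 0 past the study's cut-offs. Past the relaxed cut-offs they numbered 16, 7, 20 and 5, and the members 8, 4, 10 and 3. In the same order, 1.51%, 0.469%, 1.34% and 0.898% of all tested loci were lower past the study's cut-offs. Past the relaxed cut-offs, 5.55%, 2.28%, 6.83% and 5.42% of all tested loci were lower. Each of these fits leaves 1 library in a group. The 5 other genes at an adjusted p below 0.05 were without control replicate 1. The median ratio to germ cell genes was −0.066 to 0.12. The replicate numbers are shared only as numbers, and same-numbered libraries deviated with r = −0.183. With the replicate number as a block, 0 members passed an adjusted p of 0.05, against 0.00973% of all tested loci called lower. Past the relaxed cut-offs were 5 members, against 3.34% of loci called lower. *Ago2* was no longer past them (0 higher genes, against 1.72% of loci). A crossed pairing, chosen after seeing the data, gave 8 members and 10 lower and 1 higher other genes at an adjusted p below 0.05, among 304 lower and 246 higher loci of all 20561. At 174 to 282 counts a library, depth limits *Piwil1* most.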
